A study of Mus musculus with 8 samples.

Results

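A group of 44 genes of macroautophagy and of the mTORC1 and TFEB circuit that controls it was examined in mouse kidney with and without rFGF4. The members were taken by gene symbol from a table of 55401 genes, each member matched 1 row, and all 44 were among the 15150 genes expressed highly enough to be tested. rFGF4 is a recombinant, N-terminally truncated form of fibroblast growth factor 4 with reduced mitogenic activity. The sequenced libraries are labelled kidney, with no region named, 1 library per mouse, 4 from rFGF4-treated mice (mice 1, 2, 3 and 5) and 4 from control mice (mice 2, 3, 4 and 5). The labels of the control libraries give the genotype as db/db model and no treatment, and those of the other libraries give rFGF4 as the treatment and no genotype. In the study's own description, by contrast, both groups of sequenced mice had diabetes induced with streptozotocin and received rFGF4 or the PBS vehicle. The groups are called rFGF4-treated and db/db model below, as labelled, and no dose, duration or age is given for them in the labels. A db/db mouse lacks the long leptin receptor and is obese and diabetic. In the study's description both groups were diabetic, whereas the labels do not say so of the treated mice. No library was labelled or described as non-diabetic kidney.

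Macroautophagy encloses cell content in a double membrane, the autophagosome, and delivers it to the lysosome for breakdown. The ULK1 kinase complex starts the process, a class III phosphatidylinositol 3-kinase complex marks the membrane with PI3P, ATG9 and ATG2 supply lipid, and a pair of ubiquitin-like conjugation systems attaches LC3 and GABARAP proteins to the membrane, where receptors such as p62 bring in cargo. mTORC1 inhibits ULK1 and keeps the transcription factor TFEB out of the nucleus when nutrients are plentiful, whereas AMPK activates ULK1 when energy is low. Podocytes and proximal tubule cells are known for their reliance on autophagy. Much of this control acts through phosphorylation and lipid conjugation of the proteins, neither of which mRNA levels measure.

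Transcription of several of these genes responds to TFEB, which binds the E-box core CACGTG within the CLEAR element, and that of p62 responds to NRF2 through antioxidant response elements. The 100 bases upstream of the start site are therefore shown for *Ulk1*, *Ulk2* and *Sqstm1*, with *Lamp1* and *Atg3*, the members with more than 1 E-box core in the searched window, beside them. Sequences and starts are those of RefSeq on GRCm38.p6, read 5′ to 3′ on the gene's strand, and capitals mark CACGTG or the antioxidant response element core TGACNNNGC on either strand.
*Ulk1* (chr5:110810082-110810181, minus strand): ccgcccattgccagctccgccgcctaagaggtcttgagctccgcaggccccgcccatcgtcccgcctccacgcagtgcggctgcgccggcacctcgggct
*Ulk2* (chr11:61855093-61855192, minus strand): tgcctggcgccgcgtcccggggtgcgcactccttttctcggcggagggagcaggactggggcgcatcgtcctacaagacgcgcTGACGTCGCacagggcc
*Sqstm1* (chr11:50210821-50210920, minus strand): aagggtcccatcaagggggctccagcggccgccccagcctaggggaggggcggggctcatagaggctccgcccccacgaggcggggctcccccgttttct
*Lamp1* (chr8:13159061-13159160, plus strand): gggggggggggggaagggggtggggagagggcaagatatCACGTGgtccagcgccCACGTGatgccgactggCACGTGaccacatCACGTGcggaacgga
*Atg3* (chr16:45158729-45158828, plus strand): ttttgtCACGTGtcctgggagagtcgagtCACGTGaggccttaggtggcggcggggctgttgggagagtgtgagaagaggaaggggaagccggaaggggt
RefSeq promoters were matched for 37 of the 44 members, with 43 start sites among them. In the 250 bases upstream, CACGTG was found in 5 of these 43 promoters (11.6%), those of *Lamp1*, *Atg3*, *Atg5*, *Atg7* and *Rheb*, and in 6.02% of all 32851 mouse promoters of the same length. The longer core TCACGTG, which contains CACGTG, was found in 4 of the 43 (9.30%) and in 3.13% of all promoters. The full CLEAR palindrome and the FOXO site GTAAACA were found in 0 of the 43, against 0.24% and 3.17% of all promoters. TGACNNNGC was found in 3 of the 43 (6.98%) and in 10.2% of all promoters. *Ulk1* and *Sqstm1* thus had no CACGTG in this window, and *Ulk2* had 1 TGACNNNGC match and no CACGTG. *Atg14* and *Atg4b*, whose bases are not shown, had neither CACGTG nor TGACNNNGC. These matches are letters in a window and no measurement of binding.

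The expression unit is FPKM, fragments scaled to exon length and to the mapped reads of the library, so levels can be compared between genes. Over the 8 mice, 4 members had a mean of at least 100 FPKM, 17 of at least 10, and 14 were under 5. *Lamp1*, a main glycoprotein of the lysosomal membrane, was highest at 446 FPKM, followed by the LC3 relatives *Gabarapl1* (289 FPKM) and *Gabarap* (161 FPKM) and by *Sqstm1* (130 FPKM), which encodes p62. The lowest were *Rb1cc1* (1.85 FPKM), the FIP200 scaffold of the ULK1 complex, *Uvrag* (1.72 FPKM), a BECN1 partner, and *Atg2b* (1.64 FPKM), a lipid transfer protein. Between mice of 1 group the members varied little: their median coefficient of variation was 12.0% in rFGF4-treated and 10.9% in db/db model mice. Among all tested genes in the members' range of levels it was 24.4% and 19.8%. The ratio of the highest to the lowest mouse had a median of 1.53 over the members and ran from 1.15 for *Gabarapl2* to 6.18 for *Uvrag*.

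**Figure D1:**
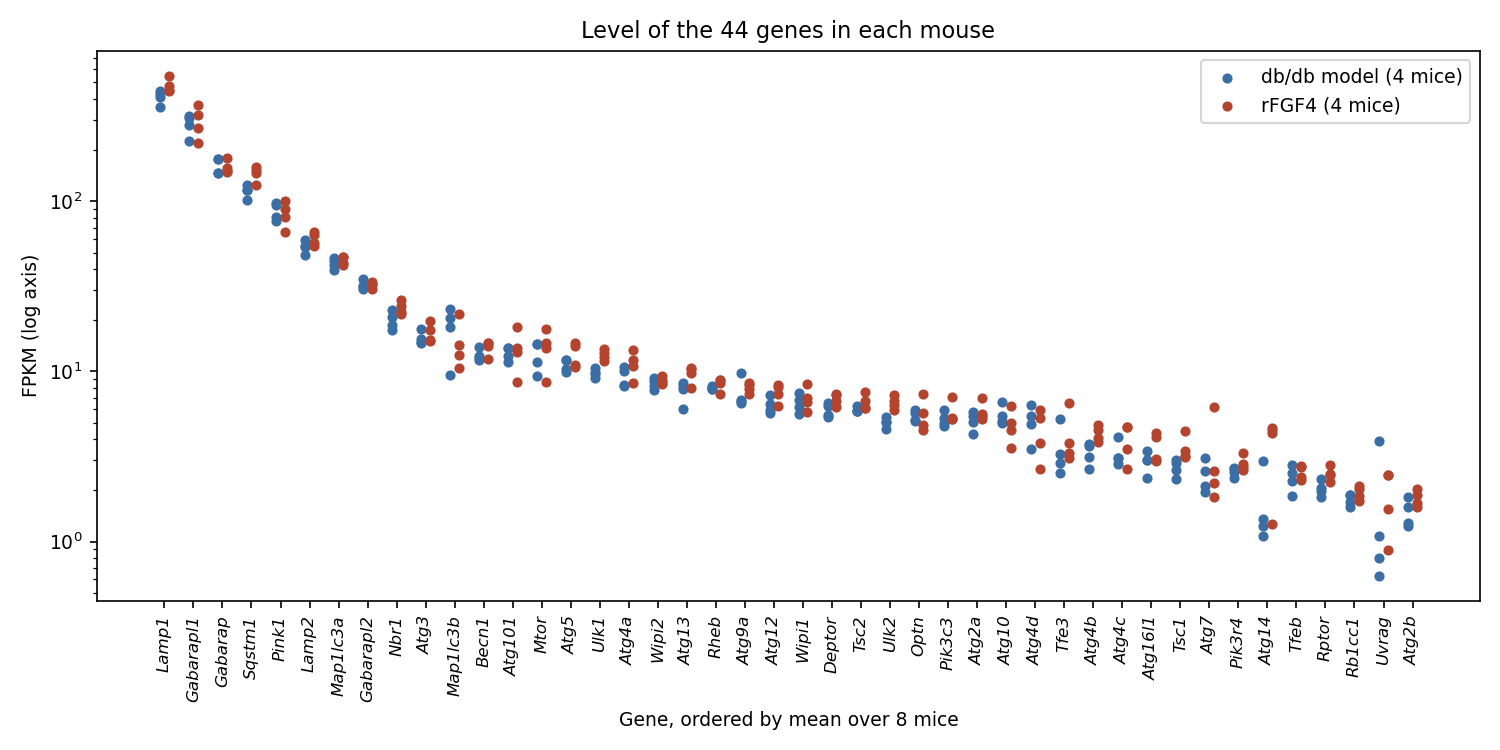
FPKM on a log axis of the 44 genes, ordered by their mean over 8 mice, with 1 point per mouse (blue, 4 db/db model mice; red, 4 rFGF4-treated mice). *Lamp1* leads at a mean of 446 FPKM and *Atg2b* is last at 1.64 FPKM, and the points of most genes lie close together, with a wide spread for *Uvrag* and *Atg14*.

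Libraries differed in ways that touch the comparison. Relative to db/db model mouse 2, depth was between 0.905 and 1.12, from the ratio that genes of low expression shared most often. The mitochondrial genome took 19.0 to 36.0% of the summed FPKM in rFGF4-treated and 24.4 to 38.4% in db/db model mice, lowest in rFGF4 mouse 1, and 48.1% of all tested genes had their highest value in that mouse. Summed FPKM of 5 macrophage markers was 67.7 to 1017 in rFGF4-treated and 35.7 to 1546 in db/db model mice, highest in rFGF4 mouse 1 and db/db model mouse 5, and that of 7 proximal tubule markers was lowest in rFGF4 mouse 1 (451 against 1066 to 1834 in the other 7). The 5 B cell and plasma cell markers summed to 22894 FPKM in db/db model mouse 5 and 2714 FPKM in rFGF4 mouse 1, against 23.4 to 1449 FPKM in the other 6, and the 3 distal convoluted tubule markers to 29.8 FPKM in rFGF4 mouse 1, against 95.3 to 241 FPKM in the other 7. Of the 3 adipocyte markers, *Fabp4* had 5.69 to 13.4 FPKM and 10.8 to 16.5 FPKM, whereas *Adipoq* and *Plin1* were under 1 FPKM in each library. The 3 red blood cell markers summed to 71.0 to 1502 FPKM and 652 to 2454 FPKM, the 4 endothelial markers to 18 to 27.2 FPKM and 22.4 to 34.5 FPKM, and the 5 collecting duct markers to 180 to 337 FPKM and 223 to 341 FPKM, these 3 lists with 0 markers above a log2 fold change of 0. Above 0 were 0 of 3 distal convoluted tubule and 1 of 7 proximal tubule markers, against 5 of 5 podocyte and 5 of 5 macrophage markers. The counts were 2 of 4 for the thick ascending limb, 2 of 3 tested B cell and plasma cell markers and 0 of 1 tested adipocyte marker. At an unadjusted p under 0.05 in limma, 1 podocyte marker was higher and the tested adipocyte marker lower. The 5 podocyte markers summed to 64.6 to 90.5 FPKM and 46.0 to 84.8 FPKM, those of the thick ascending limb to 963 to 1388 FPKM and 860 to 1240 FPKM, while the skeletal muscle markers summed to under 1 FPKM in each library. The part of these differences in the results below was not tested, and in tissue of several cell types a change in cell numbers and a change in RNA per cell cannot be told apart.

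The comparison of rFGF4-treated with db/db model mice asked which of these genes differed in the kidney between the 2 groups. *Ulk1* and *Ulk2*, the kinases that start autophagy, *Sqstm1*, the p62 cargo receptor, *Atg4b*, the protease that trims LC3 and GABARAP, and *Atg14*, which directs the lipid kinase complex to autophagy, had higher mRNA levels in rFGF4-treated mice at an unadjusted p under 0.05, by 1.27 to 2.23 times in the ratio of means. None did so after Benjamini-Hochberg adjustment over all genes, where limma gave an adjusted p of 0.918 for each of them. No member was lower at an unadjusted p under 0.05. The genes for the LC3 and GABARAP proteins themselves, and *Becn1*, *Tfeb* and *Mtor*, had overlapping groups.

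Levels were compared as log2(FPKM + 1) with limma, and log2 fold changes are on that scale, which understates ratios of genes with low FPKM. At an unadjusted p under 0.05 there were 5 of the 44 members (11.4%), all higher, against 4.62% of all tested genes, 3.56% higher and 1.06% lower. The study's threshold, which adds a 1.5-fold increase or a fall to 0.67 of the level, was passed by 1 member, *Atg14*, against 1.53% of all tested genes (1.09% higher and 0.442% lower). Of the 232 genes past it, 165 were higher and 67 lower, a split that became 93 and 83 with libraries scaled to a common median ratio and 279 and 43 with an equal sum outside the mitochondrial genes. An adjusted p under 0.05 was found for 0 of the 15150 genes, 700 of which had an unadjusted p under 0.05. The groups did not overlap in 5 members, *Ulk1*, *Ulk2*, *Atg4b*, *Sqstm1* and *Tsc1*, all with the rFGF4-treated mice higher, against 3.33% of all tested genes, 2.66% with the treated mice higher and 0.667% lower. Both properties were found in 4 members, *Ulk1*, *Ulk2*, *Atg4b* and *Sqstm1*, and in the same direction in 1.76% of all tested genes. With libraries scaled to a common median ratio, 1 member (2.27%), *Ulk2*, had an unadjusted p under 0.05, against 4.69% of all tested genes, and the same member alone had groups that did not overlap, against 3.23%. Without overlap, the exact permutation p of 4 mice against 4 is 0.0286 by construction, the smallest it can give.

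The log2 fold change was above 0 in 38 of the 44 members and in 67.1% of all tested genes. Its median was 0.14 over the members and 0.09 over all tested genes, with members between -0.24 (*Map1lc3b*) and 0.78 (*Atg14*). The highest of the 8 values lay in an rFGF4-treated mouse for 37 members, 19 of them in rFGF4 mouse 1, and the lowest in a db/db model mouse for 33. For all tested genes these shares were 67.4% and 59.8%. These counts moved with the scaling. With libraries scaled to a common median ratio, 26 members were above 0 and the medians were 0.02 for the members and -0.01 for all tested genes, whereas with an equal sum outside the mitochondrial genes 41 members were above 0 and the medians were 0.23 and 0.16.

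**Figure D2:**
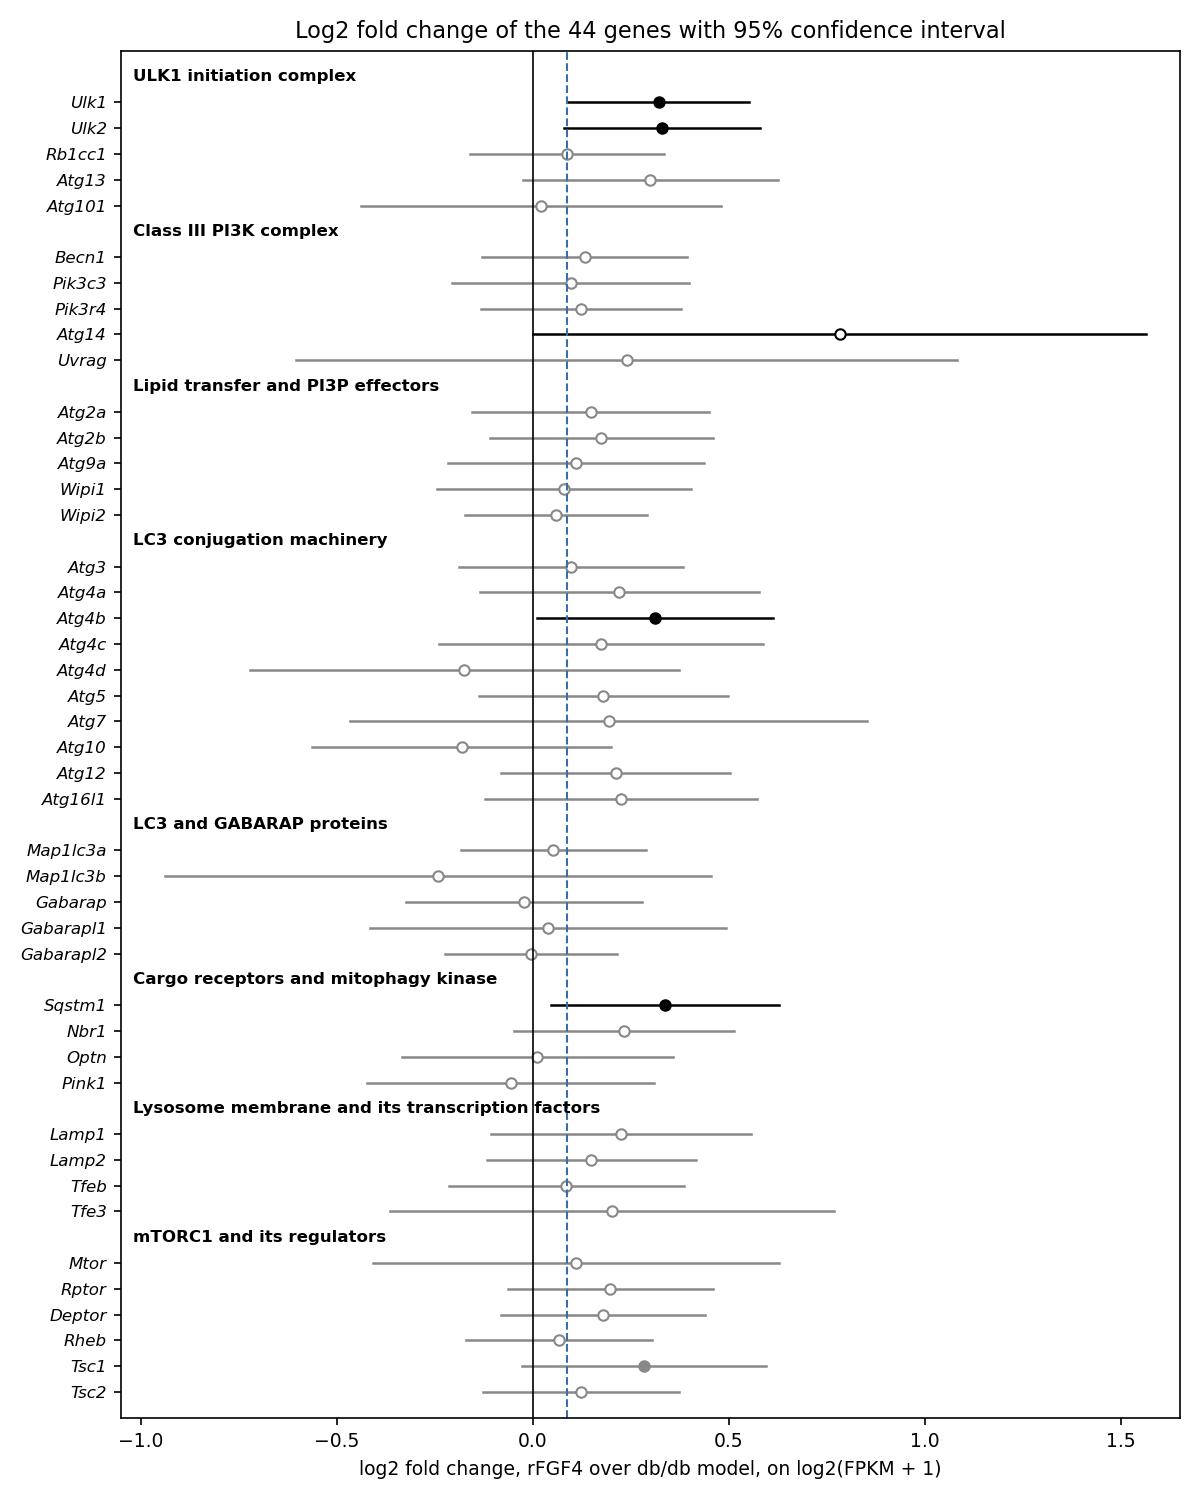
log2 fold change on the log2(FPKM + 1) scale (rFGF4-treated over db/db model, 4 mice each) with its 95% confidence interval for the 44 genes, grouped by role. Filled points mark the 5 genes whose groups did not overlap, black marks the 5 with an unadjusted p under 0.05 in limma, and the dashed blue line is the median of all tested genes, 0.09. Of the 44 points, 38 lie above 0, with *Atg14* farthest to the right and the LC3 and GABARAP genes around 0.

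In the ULK1 complex, which receives the signals of AMPK and mTORC1, all 5 genes had log2 fold changes above 0, with a median of 0.30. *Ulk1* (chr5:110784488-110810097, minus strand, GRCm38) had 12.1, 12.9, 13.5 and 11.5 FPKM in rFGF4-treated mice 1, 2, 3 and 5 and 9.16, 10.5, 9.70 and 9.90 FPKM in db/db model mice 2, 3, 4 and 5. Each treated mouse lay above each db/db model mouse, with means of 12.5 ± 0.858 and 9.81 ± 0.542 FPKM (SD, n = 4). The log2 fold change was 0.32 ± 0.10 (SE, 95% interval 0.09 to 0.55, limma unadjusted p = 0.0124, adjusted p = 0.918).

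*Ulk2* (chr11:61775649-61855073, minus strand), whose product is a kinase closely related to ULK1, had 7.24, 6.74, 6.35 and 5.95 FPKM in rFGF4-treated mice and 5.02, 4.61, 5.04 and 5.42 FPKM in db/db model mice. The groups again did not overlap, with means of 6.57 ± 0.551 and 5.02 ± 0.330 FPKM and a log2 fold change of 0.33 ± 0.11 (SE, 0.08 to 0.58, limma unadjusted p = 0.0159, adjusted p = 0.918). *Atg13*, the adaptor that links the kinase to its scaffold, had 10.3, 10.5, 9.76 and 8.03 FPKM in treated and 8.26, 6.01, 7.92 and 8.55 FPKM in db/db model mice. Mice 1, 2 and 3 of the rFGF4 group lay above all db/db model mice and mouse 5 among them (log2 fold change 0.30 ± 0.14, limma unadjusted p = 0.0671). *Rb1cc1* and *Atg101*, the remaining subunits, had log2 fold changes of 0.09 and 0.02 with overlapping groups.

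With each of the 8 mice left out in turn, *Ulk1* and *Ulk2* had an unadjusted p under 0.05 in limma in 8 of 8 fits, *Ulk1* with log2 fold changes of 0.29 to 0.36 and *Ulk2* of 0.29 to 0.37. With libraries scaled to a common median ratio, *Ulk2* came to a log2 fold change of 0.22 (limma unadjusted p = 0.0443) with groups that did not overlap, whereas *Ulk1* came to 0.20 (unadjusted p = 0.165) with overlapping groups.

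The class III PI3K complex, which makes PI3P on the forming membrane, held the largest fold change and the widest spread. *Atg14* (chr14:47540893-47570649, minus strand) had 4.53, 4.64 and 4.36 FPKM in rFGF4 mice 1, 2 and 3 but 1.27 FPKM in mouse 5, and 1.36, 2.96, 1.23 and 1.08 FPKM in the db/db model mice. Mouse 5 of the rFGF4 group thus lay among the db/db model mice, and db/db model mouse 3 lay between the clusters. The means were 3.70 ± 1.62 and 1.66 ± 0.875 FPKM (SD, n = 4), with a log2 fold change of 0.78 ± 0.34 (SE, 0.00 to 1.56, limma unadjusted p = 0.0497) and an exact permutation p of 0.0857. Of the 8 fits that left out a mouse, 2 had an unadjusted p under 0.05, those without rFGF4 mouse 5 (log2 fold change 1.10) and without db/db model mouse 3 (0.99), and the others came to between 0.66 and 0.74. A common median ratio gave 0.68 (limma unadjusted p = 0.0708). Its exons overlap those of the antisense gene *Gm49004* by 239 bases, and the sources used here do not say whether the libraries keep strand. Exons of 16 members overlap another gene, 14 of them on the opposite strand alone, with the longest overlaps for *Becn1* (3104 bases, *Cntd1*), *Atg9a* (1832 bases, *Gm29253* on the same strand), *Uvrag* (1589 bases, *Gm45187*) and *Atg4d* (1405 bases, *Kri1*).

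*Becn1*, the core subunit of the complex, had 14.6, 14.2, 11.8 and 14.7 FPKM in rFGF4-treated and 12.0, 14.0, 11.7 and 12.3 FPKM in db/db model mice. Mouse 3 of the rFGF4 group lay within the db/db model range and the other 3 treated mice above it, and the log2 fold change was 0.13 (95% interval -0.13 to 0.39). *Pik3c3*, the catalytic subunit VPS34, *Pik3r4*, its regulatory subunit, and *Uvrag*, which directs the complex to endosomes, had log2 fold changes of 0.10, 0.12 and 0.24 with overlapping groups. *Uvrag* ranged from 0.629 to 3.89 FPKM in db/db model mice alone, and without db/db model mouse 5, its highest, the log2 fold change came to 0.59 (limma unadjusted p = 0.0399), past the study's threshold. Its transcripts share stretches of at least 95% identity with other genes, *Tsc2* among them.

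Among the genes for lipid supply and PI3P effectors, *Atg2a*, *Atg2b*, *Atg9a*, *Wipi1* and *Wipi2*, log2 fold changes were between 0.06 and 0.17 with a median of 0.11, and 0 of the 5 had an unadjusted p under 0.05 or groups without overlap. ATG9A is the membrane protein of the vesicles that seed the autophagosome, and WIPI2 recruits the conjugation machinery to PI3P.

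The LC3 conjugation machinery was the largest role, with 10 genes, 8 of them above 0 and a median log2 fold change of 0.19. *Atg4b* (chr1:93751500-93790610, plus strand) had 4.86, 4.53, 3.85 and 4.08 FPKM in rFGF4-treated and 3.15, 3.72, 3.67 and 2.67 FPKM in db/db model mice. The lowest treated mouse exceeded the highest db/db model mouse by a small margin, and the log2 fold change was 0.31 ± 0.13 (SE, 0.01 to 0.61, limma unadjusted p = 0.0438, adjusted p = 0.918). It had an unadjusted p under 0.05 in 2 of the 8 fits that left out a mouse, and it came to 0.21 with a common median ratio (unadjusted p = 0.172). The other ATG4 proteases did not separate: *Atg4a* came to 0.22, *Atg4c* to 0.17 and *Atg4d* to -0.18, each with overlapping groups, and without rFGF4 mouse 1 *Atg4d* came to 0.00042. *Atg4a* shares 2115 bases at 99.3% identity with *Atg4a-ps*, so its reads may be split between them.

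*Atg5*, part of the complex with ATG12 and ATG16L1 that acts as the ligase for LC3, had 14.7, 14.0, 10.9 and 10.6 FPKM in rFGF4-treated and 9.92, 11.6, 10.3 and 11.7 FPKM in db/db model mice. Mice 1 and 2 of the rFGF4 group lay above all others, and mice 3 and 5 lay within the db/db model range (log2 fold change 0.18, 95% interval -0.14 to 0.50). Its partners *Atg12* and *Atg16l1* came to 0.21 and 0.22, and the E2-like enzymes *Atg3* and *Atg10* to 0.10 and -0.18. *Atg7*, the E1-like enzyme for both systems, had 6.15 FPKM in rFGF4 mouse 1 and 1.82 to 3.10 FPKM in the other 7 mice, with a log2 fold change of 0.19 (limma unadjusted p = 0.520) that turned to -0.10 without rFGF4 mouse 1.

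The 5 genes for LC3 and GABARAP proteins, the substrates of that machinery, had a median log2 fold change of -0.01, with 2 of 5 above 0. *Map1lc3b*, which encodes the LC3B protein used as the usual marker of autophagosomes, had 14.3, 12.4, 10.5 and 21.8 FPKM in rFGF4-treated and 18.3, 9.47, 20.6 and 23.2 FPKM in db/db model mice. Its highest and lowest values both lay in the db/db model group, and the log2 fold change was -0.24 ± 0.30 (SE, -0.94 to 0.45), with -0.50 without db/db model mouse 3 and -0.10 without db/db model mouse 5. *Map1lc3a*, *Gabarap*, *Gabarapl1* and *Gabarapl2* had log2 fold changes of 0.05, -0.02, 0.04 and -0.01. For *Gabarapl2* the interval of -0.23 to 0.21 was narrow, and its 8 values lay between 30.5 and 35.1 FPKM; it has 3 processed pseudogenes of at least 96.6% identity in the annotation.

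*Sqstm1* (chr11:50199366-50210827, minus strand), whose protein binds ubiquitinated cargo and LC3 and is itself degraded by autophagy, had 152, 159, 147 and 124 FPKM in rFGF4-treated and 102, 117, 124 and 116 FPKM in db/db model mice. The groups touched without overlap: the lowest treated value was 124.28 FPKM and the highest db/db model value 123.97 FPKM. Means were 146 ± 15.2 and 115 ± 9.06 FPKM (SD, n = 4), with a log2 fold change of 0.34 ± 0.13 (SE, 0.05 to 0.63, limma unadjusted p = 0.0279, adjusted p = 0.918). It kept an unadjusted p under 0.05 in 4 of the 8 fits that left out a mouse, and with a common median ratio it came to 0.21 (unadjusted p = 0.178). Its exons overlap *Mrnip* on the opposite strand by 580 bases.

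The receptor *Nbr1*, a relative of p62, came to 0.23 (limma unadjusted p = 0.0922) and *Optn*, a receptor for ubiquitinated mitochondria and bacteria, to 0.01. *Pink1*, the kinase that marks damaged mitochondria, had 66.3 to 101 FPKM in treated and 76.5 to 97.5 FPKM in db/db model mice, with a log2 fold change of -0.06.

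**Figure D3:**
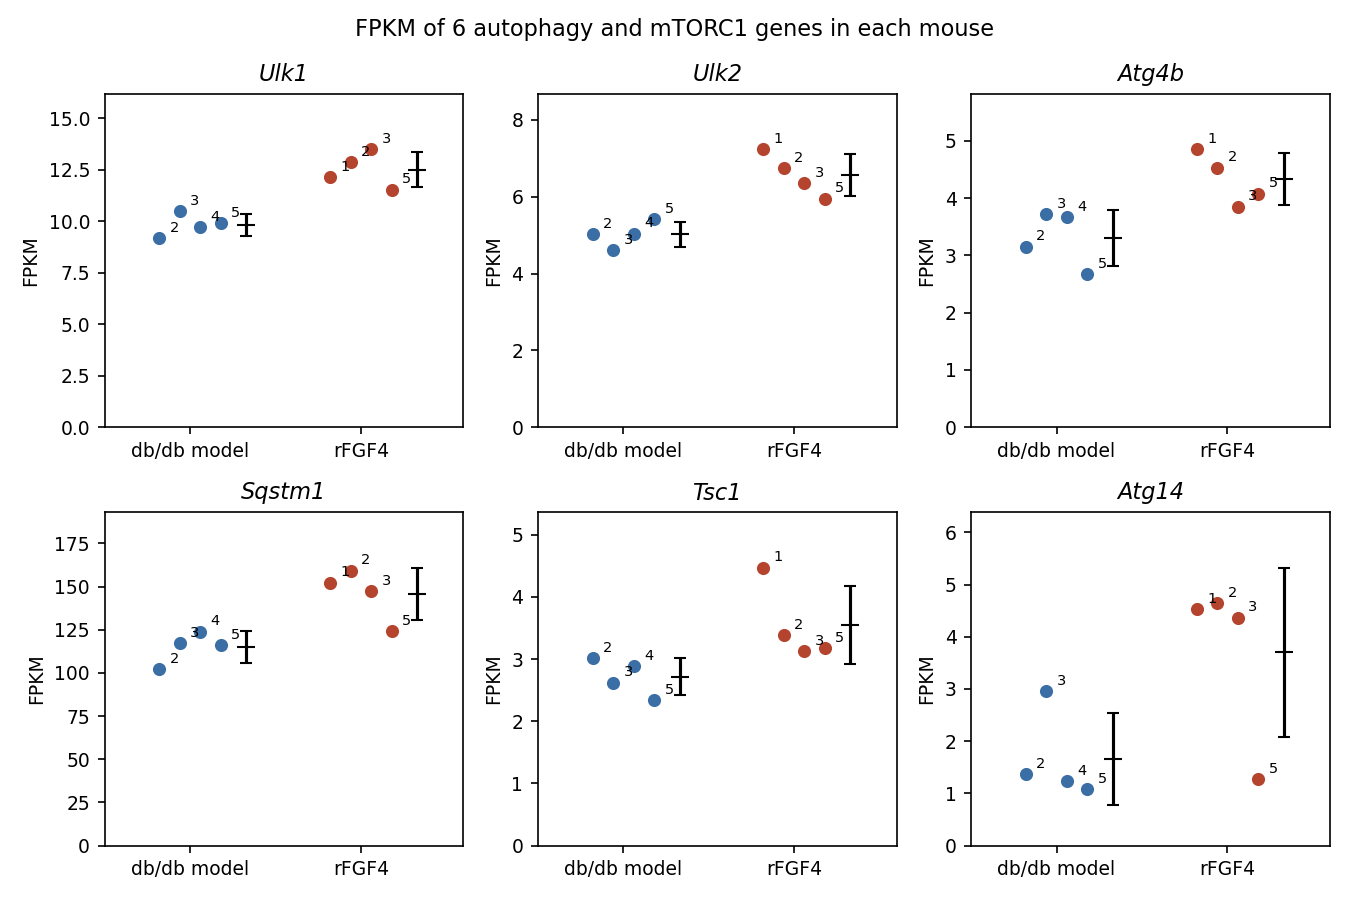
FPKM of 6 genes in 4 db/db model mice (blue) and 4 rFGF4-treated mice (red), with the mouse number beside each point, the mean ± SD (n = 4) in black and each axis starting at 0. The groups are apart for *Ulk1*, *Ulk2*, *Atg4b*, *Sqstm1* and *Tsc1*, and rFGF4 mouse 5 falls among the db/db model mice for *Atg14*.

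Among the lysosomal membrane genes and their transcription factors, *Lamp1* had 453, 479, 548 and 446 FPKM in rFGF4-treated and 428, 361, 447 and 410 FPKM in db/db model mice. Only mouse 4 of the db/db model group reached the treated range, and the log2 fold change was 0.23 ± 0.14 (SE, -0.11 to 0.56), with an exact permutation p of 0.0571. *Lamp2*, the other main membrane glycoprotein, came to 0.15 with overlapping groups.

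*Tfeb*, the regulator of lysosomal genes, had 2.77, 2.38, 2.31 and 2.74 FPKM in rFGF4-treated and 1.84, 2.26, 2.54 and 2.80 FPKM in db/db model mice. The db/db model group held both the lowest and the highest value, and the log2 fold change of 0.09 (95% interval -0.21 to 0.39) turned to -0.0039 with a common median ratio. *Tfe3*, a factor of the same family, came to 0.20, with its highest values in rFGF4 mouse 1 (6.54 FPKM) and db/db model mouse 5 (5.26 FPKM), the mice with the highest macrophage markers, and it was 0.01 without the first and 0.37 without the second. *Tfeb* mRNA gives no measure of how much TFEB was in the nucleus.

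All 6 genes of mTORC1 and its regulators had log2 fold changes above 0, with a median of 0.15, and 0 of 6 had an unadjusted p under 0.05. *Tsc1* (chr2:28641228-28691167, plus strand), a subunit of the complex that switches off the mTORC1 activator RHEB, had 4.47, 3.39, 3.13 and 3.18 FPKM in rFGF4-treated and 3.01, 2.62, 2.89 and 2.35 FPKM in db/db model mice. The groups did not overlap, with means of 3.54 ± 0.629 and 2.72 ± 0.295 FPKM, but the log2 fold change of 0.28 ± 0.14 (SE, -0.03 to 0.60) had an unadjusted limma p of 0.0688. With a common median ratio it came to 0.18 and the groups overlapped. *Tsc2*, its partner, came to 0.12 and *Rheb* to 0.07 with overlapping groups.

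*Mtor*, the kinase of the complex, had 8.69, 13.7, 17.7 and 14.7 FPKM in rFGF4-treated and 14.5, 11.3, 14.5 and 9.45 FPKM in db/db model mice. The rFGF4 group held both the lowest value, in mouse 1, and the highest, in mouse 3, and the sign of its log2 fold change of 0.11 (95% interval -0.41 to 0.63) turned when rFGF4 mouse 3 or db/db model mouse 5 was left out. *Rptor*, the subunit that binds mTORC1 substrates such as ULK1, came to 0.20 (exact permutation p = 0.0571), and *Deptor*, an inhibitor of mTOR, to 0.18 (exact p = 0.0857), both with overlapping groups.

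By mouse, the median deviation of the 44 genes from their mean over 8 mice, on the log2 scale, was 0.17, 0.09, 0.01 and -0.01 in rFGF4 mice 1, 2, 3 and 5 and -0.10, -0.10, -0.05 and -0.05 in db/db model mice 2, 3, 4 and 5. Each treated mouse lay above each db/db model mouse. Over all tested genes the corresponding medians were 0.28, 0.07, -0.06 and -0.08 in the treated and -0.11, -0.06, -0.12 and 0.11 in the db/db model mice, so that db/db model mouse 5 stood second. The members' median was below that of all tested genes in rFGF4 mouse 1 and above it in db/db model mouse 4. Relative to all tested genes the groups were thus not apart. As a share of the summed FPKM, the members took 0.298 to 0.384% in treated and 0.253 to 0.289% in db/db model mice, which again did not overlap, and this share contains the mitochondrial transcripts in its denominator. The members' own summed FPKM, led by *Lamp1* and *Gabarapl1*, was 1494 to 1610 and 1369 to 1515 and did overlap. These sums rest on the same 8 libraries as the values above and carry no test.

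**Figure D4:**
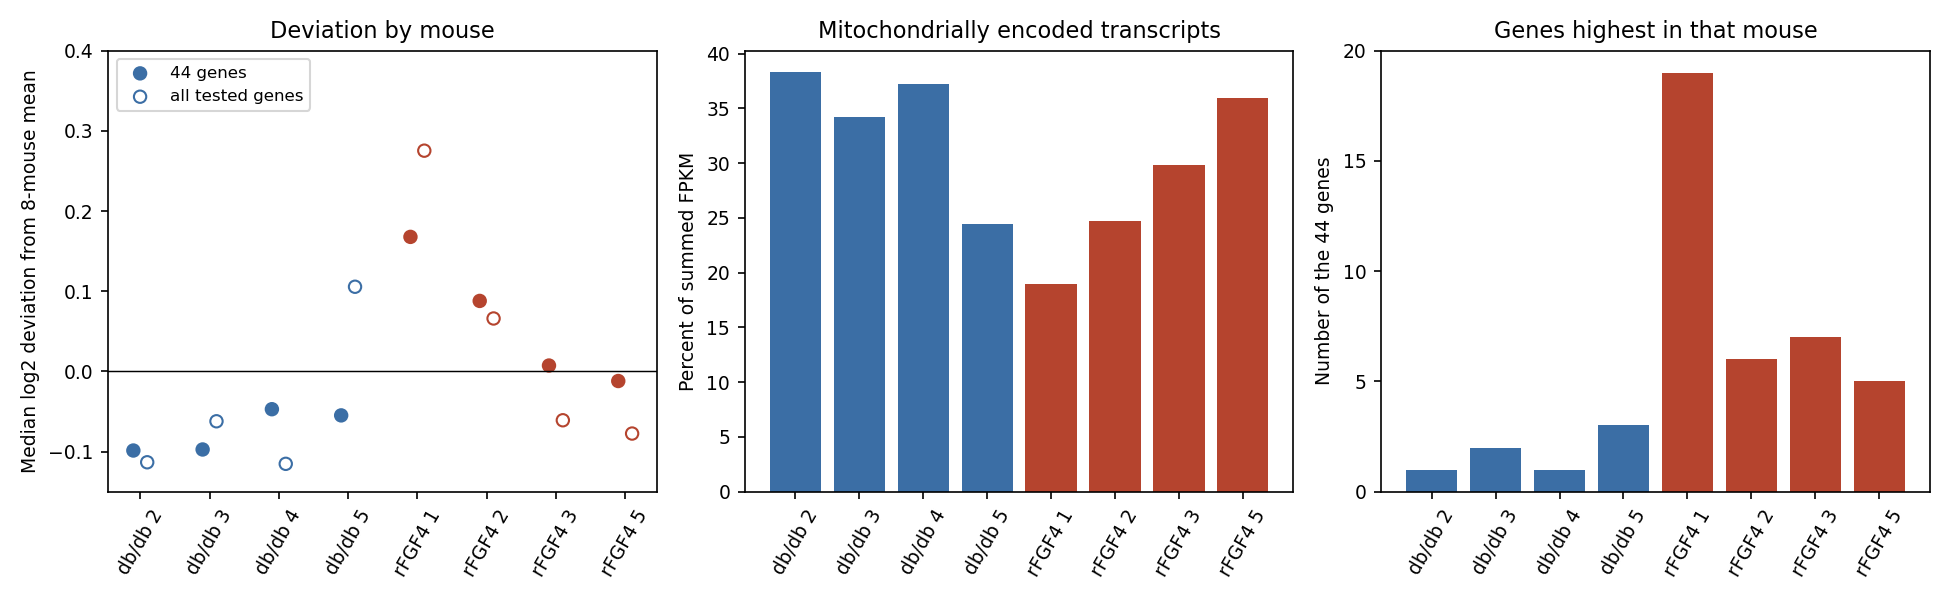
For each mouse (blue, db/db model; red, rFGF4-treated), the median log2 deviation from the mean of 8 mice for the 44 genes (filled) and for all tested genes (open), the percent of summed FPKM from mitochondrially encoded transcripts, and the number of the 44 genes with their highest value in that mouse. The 4 rFGF4-treated mice have medians of -0.01 to 0.17 for the 44 genes and the 4 db/db model mice of -0.10 to -0.05, and 19 genes are highest in rFGF4 mouse 1.

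Further lists of the pathway are set beside all tested genes, of which 67.1% were above 0, 4.62% had an unadjusted p under 0.05 and 3.33% had groups that did not overlap. These lists and the annotated sets below are given for FPKM as deposited alone. With a common median ratio, 47.6% of all tested genes were above 0. Of 17 other autophagosome genes, 15 were above 0 (median log2 fold change 0.22), and 3 had an unadjusted p under 0.05, all higher: *Tmem41b* (0.45), a lipid scramblase of the ER, *Snap29* (0.26), a SNARE for fusion with the lysosome, and *Rab7* (0.26), the late endosomal GTPase. Of 33 lysosomal CLEAR genes, 29 were above 0 (median 0.16), and 1 had an unadjusted p under 0.05, the peptidase gene *Tpp1* (0.48). *Tpp1* and *Ctsl*, which encodes cathepsin L, were the 2 whose groups did not overlap. Of 15 selective autophagy receptors 13 were above 0 (median 0.11), and 0 had an unadjusted p under 0.05. These genes, and *Sesn2*, *Eif4ebp2* and *Lgmn* below, were named after their values were seen.

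Of 29 nutrient-sensing regulators of mTORC1 only 14 were above 0 (median -0.000846), with *Lamtor3* and *Sesn2* (0.47), a leucine sensor, at an unadjusted p under 0.05, against 4.62% of all tested genes. *Lamtor3*, a subunit of the Ragulator that holds mTORC1 on the lysosome, passed the study's threshold, as did 1.53% of all tested genes, with 6.01, 8.94, 7.27 and 6.94 FPKM in rFGF4-treated and 4.15, 3.71, 4.64 and 5.61 FPKM in db/db model mice. Its groups did not overlap (log2 fold change 0.59 ± 0.16 SE, limma unadjusted p = 0.00534, adjusted p = 0.918). Of 13 mTOR complex partners and outputs 11 were above 0 (median 0.12), with *Eif4ebp2* (0.30), a translation repressor that mTORC1 phosphorylates, at an unadjusted p under 0.05.

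In the deposited KEGG annotation, the set named autophagy in animals had 122 tested genes, 36 of them members. Of these 9 were higher and 0 lower at an unadjusted p under 0.05, 8 had groups without overlap, and the median was 0.17. Over all tested genes, 3.56% were higher and 1.06% lower at that p, and 3.33% had groups without overlap. The lysosome set had 117 tested genes, 7 of them higher and 0 lower, and 4 with groups without overlap. The gene of the lysosomal protease legumain, *Lgmn* (0.60), was past the study's threshold. The mitophagy set had 60, with 6 higher and 0 lower, and the mTOR signaling set 130, with 9 higher and 0 lower. In the mTOR signaling set, *Lamtor3* and the insulin receptor gene *Insr* were past the study's threshold, which 1.53% of all tested genes passed. Groups without overlap were found for 5 genes of the mitophagy set and 7 of the mTOR signaling set. Above 0 were 101 of the 122 autophagy, 92 of the 117 lysosome, 48 of the 60 mitophagy and 92 of the 130 mTOR signaling genes. The share of all tested genes above 0 was 67.1%. The medians of the lysosome, mitophagy and mTOR signaling sets were 0.12, 0.13 and 0.12, beside 0.09 for all tested genes. The sets share genes with each other and with the members.

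The calls for single members depended on how the libraries were treated. Over the analysis as reported and 18 alternatives, *Ulk1* and *Ulk2* had an unadjusted p under 0.05 in limma in 17 each, *Sqstm1* in 11 and *Atg4b* in 8, and the log2 fold changes of these 4 genes were above 0 in each. Without rFGF4 mouse 1 and db/db model mouse 5 together, the mice with the highest macrophage markers of their groups, *Ulk1* and *Ulk2* were the 2 members with an unadjusted p under 0.05, against 5.68% of all tested genes. The 6 members whose groups then did not overlap were the 5 above and *Rptor*, against 13.3% of all tested genes with 3 mice in each group.

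**Figure D5:**
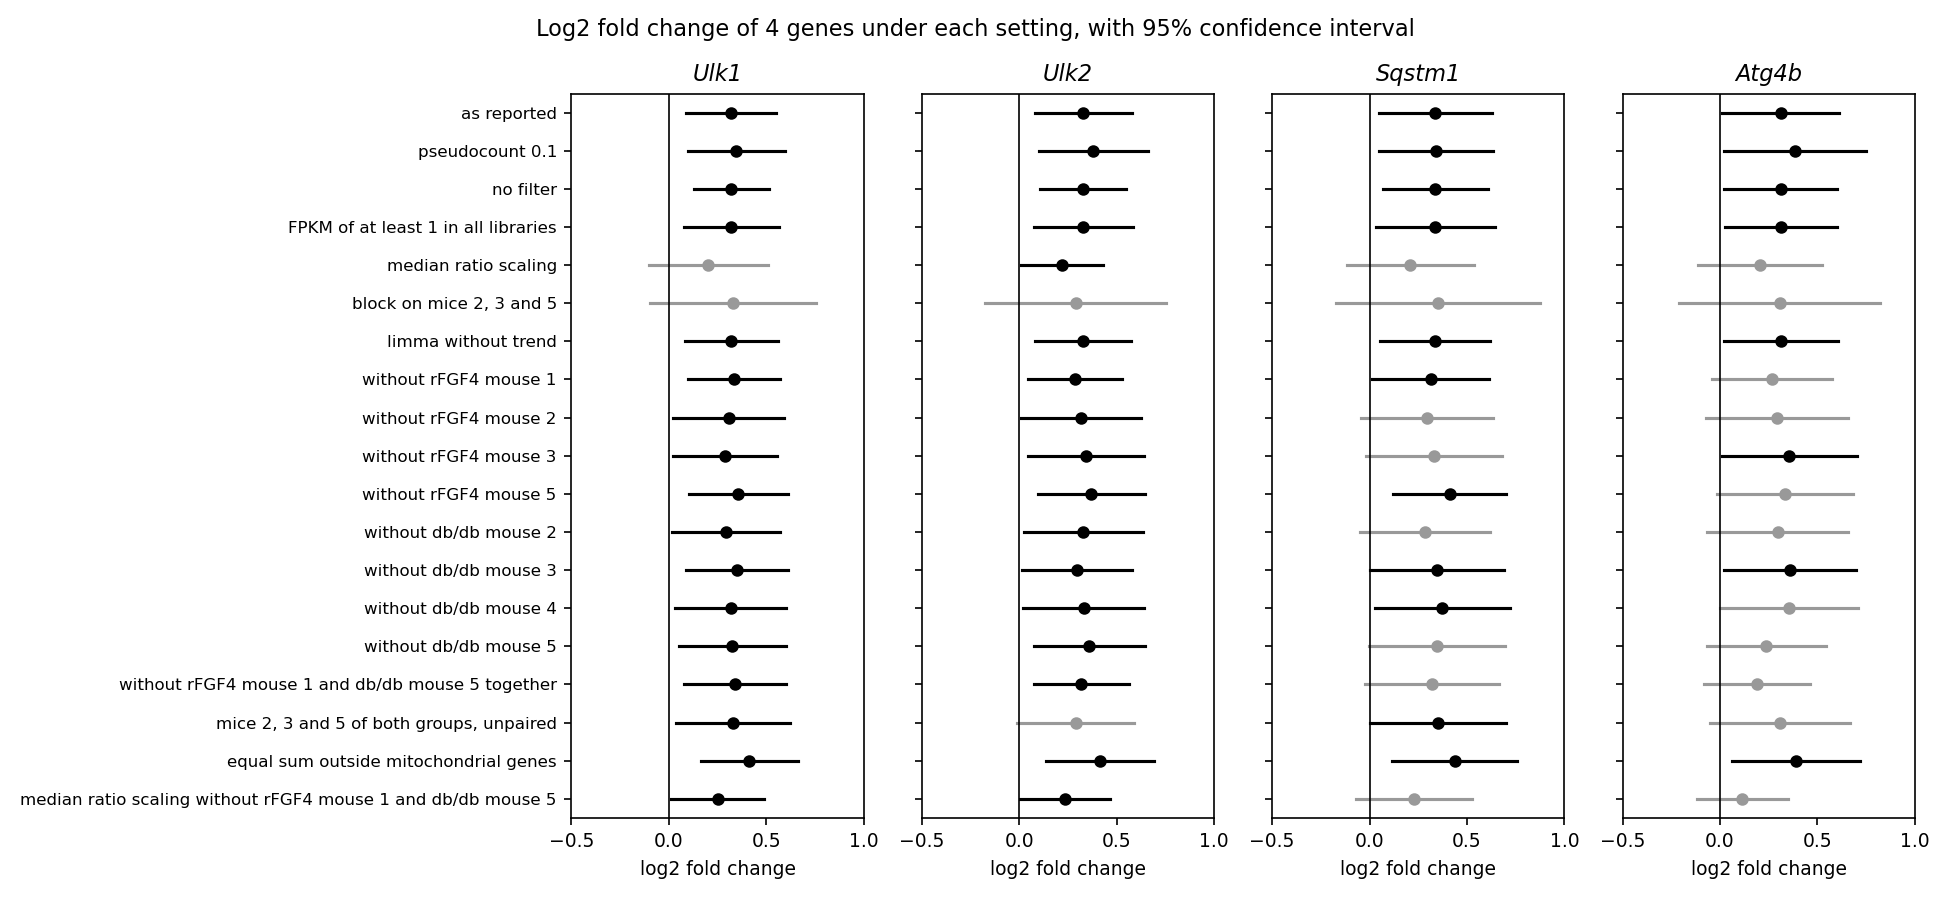
log2 fold change with its 95% confidence interval of *Ulk1*, *Ulk2*, *Sqstm1* and *Atg4b* as reported and under 18 alternatives, with black marking an unadjusted p under 0.05 in limma and grey the rest. The estimates are above 0 throughout, and they are black in 17 of 19 analyses for *Ulk1* and *Ulk2*, 11 for *Sqstm1* and 8 for *Atg4b*.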

How the data were processed

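Poly(A) RNA of kidney from 8 mice was sequenced as paired-end libraries. The authors built transcripts from the mapped reads in StringTie, combined them over libraries in gffcompare and deposited FPKM per gene. The submitters' processing notes also name HISAT2 2.0, StringTie 1.3.0, Bowtie 0.12.2 and the build mm8. The deposited table also holds the authors' fold change as a ratio, its log2, and p-values and q-values from edgeR, none of which was used. A deposited FPKM of 0.0001 stands in place of 0. No counts were used here, so counting errors of single values are unknown, and the count tests of the study's methods were replaced by limma.

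A gene was tested if 4 libraries or more reached 0.5 FPKM, and log2(FPKM + 1) was compared over all 8 libraries in limma 3.58.1 (R 4.3.3), with the variance prior following expression and Benjamini-Hochberg adjustment. The procedure was tested on simulated data. Single genes were also compared with two-sided exact permutation tests. The labels do not say that mice were litter mates or handled together. Members, lists and tests were chosen with earlier results of these data known.

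Values in all mice are given for members with an unadjusted p under 0.05 or groups without overlap, for the 6 with the largest absolute fold change, and for *Ulk1*, *Becn1*, *Atg5*, *Map1lc3b*, *Sqstm1*, *Tfeb*, *Lamp1* and *Mtor*, chosen as central genes. From further lists, genes past the study's threshold with groups that did not overlap and a mean of at least 1 FPKM are named. Positions and exon overlaps are from the GENCODE M21 annotation of GRCm38, which holds 99.5% of the identifiers; the table gives no coordinates. Near-identical copies were found with blastn 2.17.0 (at least 95% identity over 200 bases), and promoters come from RefSeq. Alternatives were another pseudocount, no filter or a stricter one, no fold change limit, another scaling, limma without trend, each mouse left out and a block for mouse numbers. Those without rFGF4 mouse 1 and db/db model mouse 5, with mice 2, 3 and 5 only, and with an equal sum outside the mitochondrial genes were chosen after seeing the data. Plots were made in Python 3.11.15 (matplotlib 3.10.9).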

Additional observations from a re-analysis of the deposited data

Results flagged for a closer look

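In each group of 4 mice, the value farthest from the others was compared with Dixon's 95% critical value for the ratio of its gap to the group's range. Chance alone flags about 1 group in 20, or 4.4 of the 88 groups tested for the 44 genes, and 5 stood apart. *Atg14* in rFGF4 mouse 5 was lowest at 1.27 FPKM against 4.36 to 4.64 FPKM in the other treated mice (ratio 0.945). *Becn1*, of the same lipid kinase complex, was lowest in rFGF4 mouse 3 at 11.8 FPKM against 14.2 to 14.7 FPKM (ratio 0.843), and *Pik3c3*, its catalytic subunit, was highest in rFGF4 mouse 1 at 7.07 FPKM against 5.23 to 5.32 FPKM (ratio 0.942). In db/db model mouse 4, *Atg9a* was highest at 9.76 FPKM against 6.50 to 6.80 FPKM (ratio 0.890), and *Tsc2* was highest at 6.29 FPKM against 5.82 to 5.87 FPKM (ratio 0.892).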

How the results depend on the processing

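No member had an adjusted p under 0.05 in limma in the analysis as reported or under the 18 alternatives; the smallest was 0.379, without rFGF4 mouse 5. The 1 member past the study's threshold, *Atg14*, was 0 members with a pseudocount of 0.1, with no filter, with a common median ratio, with a block for the mouse numbers, without rFGF4 mouse 1 and db/db model mouse 5 (scaled or not) and with mice 2, 3 and 5 only. Leaving out single mice gave 0 to 1, which was *Atg14* without rFGF4 mouse 5 or db/db model mouse 3 and *Uvrag* without db/db model mouse 5. Without the fold change limit, 5 members and 700 of all genes passed. Over all genes, leaving out single mice gave 188 to 580 past the study's threshold, with 580 without rFGF4 mouse 5 and 434 without db/db model mouse 5, against 232 as reported.

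Members with an unadjusted p under 0.05, 5 as reported, were 1 (*Ulk2*, or 2.27% of members) with a common median ratio, against 4.69% of all tested genes, 2 to 5 with single mice left out (all genes 2.84 to 9.44%), 2 without rFGF4 mouse 1 and db/db model mouse 5 (all genes 5.68%; 2 also when scaled, all genes 5.45%), 3 with mice 2, 3 and 5 only (all genes 4.17%), and 8 with an equal sum outside the mitochondrial genes (all genes 7.45%). Members whose groups did not overlap, 5 as reported, were 1 with a common median ratio (2.27% of members, against 3.23% of all tested genes), 5 to 15 with single mice left out, which cannot lower this count (15 without rFGF4 mouse 5, against 11% of all tested genes, and 9 without db/db model mouse 4, against 5.04%), 10 with mice 2, 3 and 5 only, against 9.91% of all tested genes, 8 with the equal sum, against 5.43%, and 4 with a common median ratio without rFGF4 mouse 1 and db/db model mouse 5, against 12.3%. The members' median log2 fold change, 0.14 as reported, was 0.024 with a common median ratio, 0.0432 with that scaling without rFGF4 mouse 1 and db/db model mouse 5, 0.23 with the equal sum, and 0.10 to 0.15 with single mice left out. Over all tested genes the median, 0.09 as reported, was 0.01 without rFGF4 mouse 1 and 0.15 without db/db model mouse 5, where that of the members was also 0.15. The cause of these differences was not tested.

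Of 234 values for the 13 genes described in all mice, 191 kept their direction and side of the threshold, 36 lost and 3 gained an unadjusted p under 0.05, and 4 changed sign: *Tfeb* (-0.0039) and *Mtor* (-0.0076) with a common median ratio, and *Mtor* without rFGF4 mouse 3 (-0.0195) and without db/db model mouse 5 (-0.0051), where leaving out single mice gave -0.0195 to 0.298.

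Deviations from the group means correlated at -0.23, -0.16 and -0.39 over genes for mice numbered 2, 3 and 5 in both groups. For mice with different numbers they correlated at -0.56 to 0.57. The labels do not say whether mice of the same number had more in common. With a replicate block for that pairing, which used 6 mice, 0 members passed the study's threshold, 0 had an unadjusted p under 0.05, against 2.61% of all tested genes, and 10 had groups that did not overlap, and the median was 0.11, against -0.02 over all tested genes. The table gives no counts, so neither a count model nor another count normalization was run, and the counting error of each value is unknown.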
